A study of Ovis aries with 16 samples.

Results

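LOC114112617 and LOC114113790 are long non-coding RNA (lncRNA) genes of the sheep whose small RNA reads moved together in muscle and were fewer in muscle of ewes exposed to excess testosterone before birth. They are 2 of the 2973 features in the lncRNA table and of 4920 features in the tables of 4 RNA classes. They were chosen by name, because in earlier results of these data both were lower in prenatal testosterone muscle and kept a near constant ratio of reads there. Those muscle values are therefore given as a description, without a test.

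Small RNA libraries were made from total RNA of liver and muscle of 8 female sheep. The 4 groups of 4 libraries were prenatal T muscle and prenatal T liver, from ewes 48, 185, 233 and 255 given the prenatal T-treatment, and control muscle and control liver, from ewes 98, 131, 132 and 201. Both tissues came from the same ewes. The sources used here do not give the dose and timing of the treatment, the age of the ewes or the muscle sampled. Lambs exposed to testosterone in the womb are a known model of metabolic and reproductive programming.

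A lncRNA is a transcript with little or no coding capacity. Some act where they are made on neighbouring genes, some act as scaffolds for proteins, and some host small RNAs that are cut out of them. A library of small RNAs holds short fragments, so a read assigned to a lncRNA may be a piece of the long transcript or a small RNA made from its gene. Which stretch of each gene the reads came from is not analysed here, and the values describe small RNA reads only. In bulk tissue, fewer cells of a type and less RNA per cell cannot be told apart.

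LOC114113790 lies between HES1 and OPA1, the nearest protein-coding genes in the annotation used for names. HES1 is a transcription factor downstream of Notch signalling that holds muscle stem cells back from differentiation, and OPA1 fuses the inner membranes of mitochondria. Neither is analysed here. Another lncRNA gene, LOC114113793, overlaps LOC114113790 in that annotation. It held 1 read over the 8 muscle libraries and 10 over the 8 livers, against 19222 and 467 for LOC114113790, and whether the counting used strand is not stated. Of the other neighbouring lncRNA genes in the tables, LOC114113796 held 3 reads in muscle and 0 in liver, and LOC105602482 and LOC114109036 held 0 in both. LOC114112617 is not in the annotation used.

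The 8 muscle libraries held 122749 to 926854 lncRNA reads and the 8 livers 38399 to 124174. MIR133, a miRNA made in skeletal and heart muscle, took 37.2% to 56.4% of miRNA reads in prenatal T muscle and 50.0% to 54.8% in control muscle, against 0.0290% to 0.0470% in prenatal T liver and 0.0353% to 0.227% in control liver. The liver-enriched MIR148A and MIR194 together took 0.186% to 0.323% in prenatal T muscle and 0.217% to 0.351% in control muscle, against 9.97% to 14.6% in prenatal T liver and 10.7% to 13.7% in control liver. The lowest MIR133 share among muscles, 37.2%, belonged to ewe 255, whose muscle library was the shallowest and the only muscle library of a second set by its library number. The highest share among livers, 0.227%, belonged to ewe 98.

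In prenatal T muscle LOC114112617 held 2341 normalised reads in ewe 48, 3247 in ewe 185, 1478 in ewe 233 and 1066 in ewe 255. In control muscle it held 5760 in ewe 98, 4955 in ewe 131, 16270 in ewe 132 and 10284 in ewe 201. Normalised reads are the deposited unit, in which each library's reads were divided by its own size factor, and are comparable within a tissue. Every prenatal T muscle lay below every control muscle, and the controls themselves split into a lower pair, ewes 98 and 131, and a higher pair, ewes 132 and 201. The means were 2033 ± 968 in prenatal T muscle and 9317 ± 5195 in control muscle (SD, n = 4 each), a log2 difference of -2.16 (SE 0.43) on the log2(value + 1) scale.

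LOC114113790 held 915 normalised reads in prenatal T muscle of ewe 48, 1239 in ewe 185, 531 in ewe 233 and 420 in ewe 255. In control muscle it held 1638 in ewe 98, 1947 in ewe 131, 6153 in ewe 132 and 4641 in ewe 201. The order of the prenatal T ewes was the same as for LOC114112617, with ewe 185 highest and ewe 255 lowest, and ewes 132 and 201 were again the highest controls. Its mean was 776 ± 374 in prenatal T muscle and 3595 ± 2175 in control muscle (SD, n = 4 each), a log2 difference of -2.12 (SE 0.47).

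These log2 differences were the lowest among lncRNAs with a mean of at least 5 normalised reads in muscle, where the median difference was -0.069. Within library set 1, which leaves out the muscle of ewe 255, they were -1.89 and -1.87. Both were among the lncRNAs called lower at a limma adjusted p under 0.05, which were 3.51% of those tested and are how the pair was chosen. The other lncRNAs called were LOC105607806 at -2.12 and LOC114118460 at -2.07, and the next lowest, LOC114112974 at -1.45, was not called. The lncRNAs whose prenatal T muscles all lay below every control muscle made up 4.39% of those tested. Of the 5 leading muscle lncRNAs, LOC114112617 was the only one called. The differences of the others were -0.19 for LOC105604459, 0.28 for LOC105603743, 0.072 for LOC114118399 and 0.0097 for LOC105611269.

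**Figure D1:**
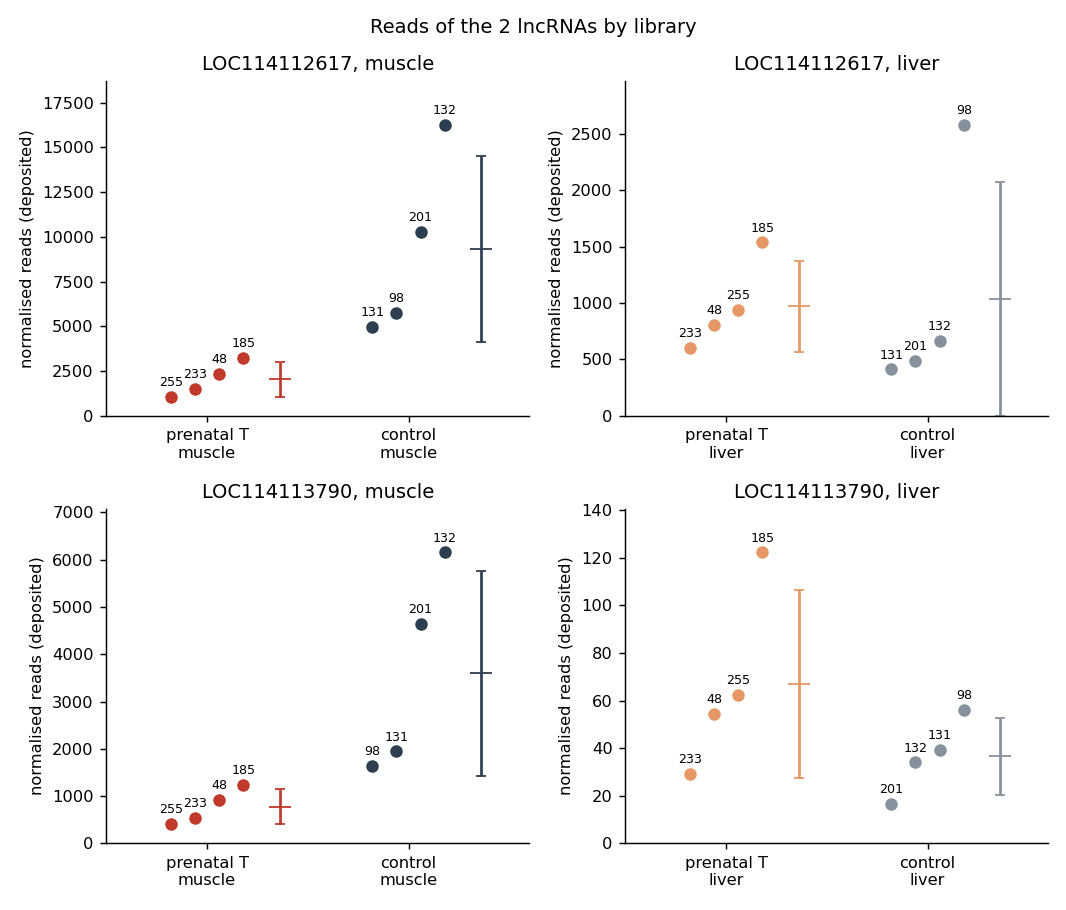
Deposited normalised reads of LOC114112617 (top) and LOC114113790 (bottom) in muscle (left) and liver (right); each point is a library with its ewe number, and the bar is the mean ± SD of 4 libraries. In muscle all prenatal T points lie below the control points, while in liver the groups overlap and the control liver of ewe 98 stands at 2583 for LOC114112617.

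As a share of lncRNA reads, LOC114112617 made up 0.476% ± 0.166 in prenatal T muscle and 2.25% ± 1.34 in control muscle, and LOC114113790 0.182% ± 0.0657 and 0.861% ± 0.536 (SD, n = 4 each). The prenatal T muscle with the largest share of LOC114112617, ewe 185, had 0.662% (95% Wilson interval 0.639 to 0.685). The control muscle with the smallest, ewe 131, had 1.25% (1.22 to 1.28). The intervals cover counting error only, not the spread between ewes. In the shallowest library, muscle of ewe 255, the pair still rested on 436 and 172 reads.

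In prenatal T muscle the SD of the log2 values was 0.71 for LOC114112617 and 0.71 for LOC114113790, against a median of 0.53 over the lncRNAs tested, of which 41 and 40 had a larger SD. In control muscle the SDs were 0.79 and 0.93, against a median of 0.41, with 9 and 7 lncRNAs above them. By reads within a library, LOC114112617 ranked 6 to 11 in prenatal T muscle and 3 to 5 in control muscle, and LOC114113790 ranked 10 to 15 and 5 to 8. By mean over the 8 muscles LOC114112617, at 5675 normalised reads, stood between LOC114118399 at 9954 and LOC105611269 at 4946. LOC114113790, at 2185, stood between LOC105608013 at 3771 and LOC105602212 at 1991. These ranks are not per length.

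MicroRNAs (miRNAs) that mark other cell types were set beside this contrast. The vessel and stroma list, of which MIR143, MIR10B, MIR199A and MIR21 were in the table, summed to 6347 to 12727 normalised reads in prenatal T muscle and 12034 to 17086 in control muscle. None of these 4 was called, in a test that called 0% of 64 miRNAs with limma, with 5 at an unadjusted p under 0.05. MIR10B held 913 to 1347 normalised reads in prenatal T muscle and 1356 to 1764 in control muscle. Its ranges lay apart by a narrow gap, from 1347 to 1356, and how many of the 64 miRNAs tested separated in this way was not counted. The ranges of MIR143, MIR199A and MIR21 overlapped between the groups. The miRNAs of the adipose list are not analysed here. The lymphocyte marker MIR150 had 840 to 1690 normalised reads in prenatal T muscle and 1252 to 1693 in control muscle. The erythroid list's MIR16B had 832 to 1415 in prenatal T muscle and 956 to 1239 in control muscle. The epithelial MIR200A, MIR200B and MIR200C together had 3.60 to 7.89 in prenatal T muscle and 6.48 to 13.8 in control muscle. MIR133 had 110969 to 250824 normalised reads in prenatal T muscle and 198090 to 237966 in control muscle. Their part in the muscle difference of the pair was not tested.

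The ratio of LOC114113790 reads to LOC114112617 reads stayed in a narrow range in muscle. In prenatal T muscle it was 0.391 in ewe 48, 0.382 in ewe 185, 0.359 in ewe 233 and 0.394 in ewe 255, a mean of 0.381 ± 0.0160 (SD, n = 4). In control muscle it was 0.284 in ewe 98, 0.393 in ewe 131, 0.378 in ewe 132 and 0.451 in ewe 201, a mean of 0.377 ± 0.0692 (SD, n = 4). The group means thus differed by less than the spread between libraries, while the mean of each lncRNA was lower in prenatal T muscle. The ratio counts reads and is not per length, so it does not say which transcript is the more abundant.

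The lowest ratio among muscles, that of ewe 98, had a 95% Wilson interval of 0.270 to 0.299. The highest, that of ewe 201, had an interval of 0.435 to 0.468, and the shallowest library, that of ewe 255, had 0.331 to 0.471. Without ewe 98 the mean over 7 muscles was 0.393 ± 0.0286.

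**Figure D2:**
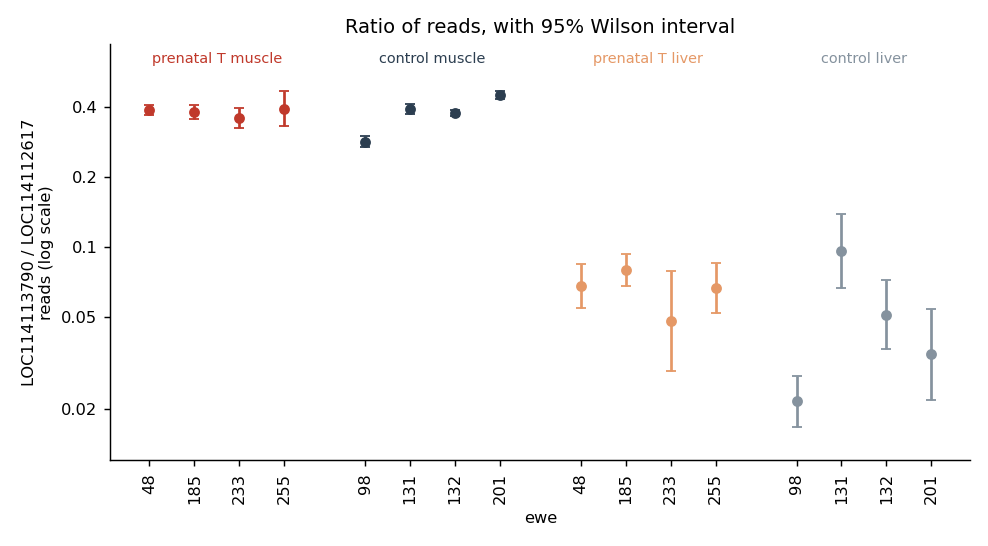
Ratio of LOC114113790 reads to LOC114112617 reads in each library on a log axis, with its 95% Wilson interval, by group and ewe. The muscle libraries lie between 0.284 and 0.451 and the livers between 0.0217 and 0.0960.

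The ratio had a CV of 12.3% over the 8 muscles, against 41.6% over the 8 livers, where it was lower. Livers held 16 to 156 reads of LOC114113790 a library and muscles 172 to 7173. Counting error therefore weighs more in the liver CV, and its part was not separated. In liver the ratio was 0.0676 in ewe 48, 0.0795 in ewe 185, 0.0480 in ewe 233 and 0.0665 in ewe 255 for prenatal T liver. For control liver it was 0.0217 in ewe 98, 0.0960 in ewe 131, 0.0511 in ewe 132 and 0.0344 in ewe 201. The lowest muscle, 0.284, lay above the highest liver, 0.0960. As the ratio is part of how the pair was chosen, these tissue differences are a description. They also largely coincide with library set, since most muscles were of set 1 and most livers of set 2. The means were 0.0654 ± 0.0130 in prenatal T liver and 0.0508 ± 0.0324 in control liver (SD, n = 4 each), a difference of 0.0146 (two-sided exact permutation test over 70 assignments, p = 0.457, where the smallest possible p is 0.0286). Prenatal T liver rested on 322 reads of LOC114113790 and control liver on 145, which limits how small a difference could be seen.

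**Figure D3:**
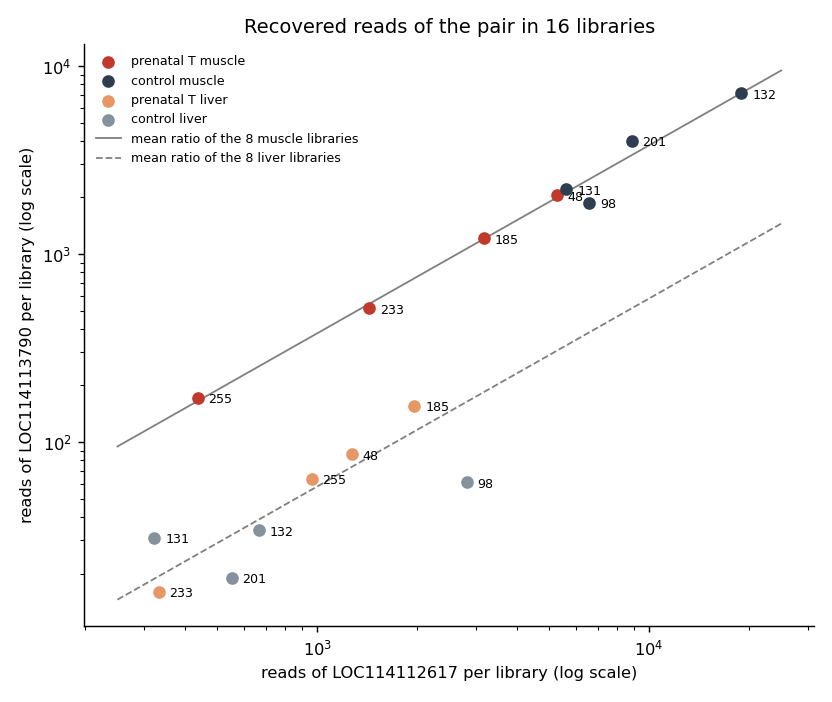
Recovered reads of LOC114113790 against LOC114112617 in 16 libraries, both axes log, labelled by ewe, with lines at the mean ratio of muscle (0.379) and liver (0.0581). The muscle libraries of both groups follow 1 line over a wide range of reads, and the livers lie below it.

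Co-variation of the pair in muscle was described by the deviations of log2 values from their group means over the 8 libraries, which share their depth and scaling. The correlation was 0.97 by Pearson's r and 0.90 by Spearman's rho. Of the 6441 pairs of lncRNAs in muscle, this pair among them, 14 had an r at least as high. Over 402 features with reads in every muscle library, the log2 ratio of reads to LOC114112617 varied least for LOC114113790, with an SD of 0.188. The next was LOC114112974, with 0.755 against LOC114112617 and 0.863 against LOC114113790. This measure includes the difference between the groups, which the pair was chosen for. The near constant ratio of reads in muscle was also a reason for the choice. The rank of the ratio, the correlation and its place among pairs of lncRNAs therefore describe the choice and do not test it. No other feature carried the same reads as either member over the 8 muscles or the 8 livers.

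The tables do hold a pair of features with nearly equal counts. LOC114118399, another leading muscle lncRNA, and MIR125B, a miRNA of many tissues, had equal reads in 15 of 16 libraries and 87775 reads each over the 8 muscles.

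The features most like LOC114112617 in muscle, out of 316 with a mean of at least 5, were the snoRNA LOC114114215 (r = 0.85), the lncRNA LOC105603919 (0.84), the snoRNAs LOC114117126 (0.83) and LOC114113393 (0.79) and the lncRNA LOC114116643 (0.78). Small nucleolar RNAs (snoRNAs) guide the modification of other RNAs. All 5 were low, with 58 to 280 reads over the 8 muscles, against 50384 for LOC114112617. LOC114114215 had 18.1 ± 5.70 normalised reads in prenatal T muscle and 17.9 ± 4.26 in control muscle, and LOC105603919 had 6.63 ± 2.52 and 5.50 ± 2.36 (SD, n = 4 each). For LOC114113790 the list was LOC105603919 (0.90), LOC114117126 (0.88), LOC114113393 (0.85), LOC114110677 (0.85) and LOC114116643 (0.82).

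The closest miRNA was MIR125B, with r = 0.75 to LOC114112617 and 0.76 to LOC114113790, and the closest small nuclear RNA was LOC114117060, with 0.70 and 0.60. Without ewe 255, MIR125B had 0.91 and 0.88. Each RNA class was scaled separately, so r between classes also depends on that scaling. The lowest r to LOC114112617 were those of LOC114113616 (-0.85), the snoRNA LOC114110209 (-0.82) and LOC101102543 (-0.80). For the other lncRNAs called lower in prenatal T muscle, r to LOC114112617 was -0.48 for LOC114118460 and 0.41 for LOC105607806. The leading muscle lncRNAs had r of 0.47 for LOC105604459, 0.21 for LOC105603743, 0.67 for LOC114118399 and 0.12 for LOC105611269. Without ewe 255 these were -0.072, 0.10, 0.69 and -0.11. MIR133 had r = 0.41 over the 8 muscles and -0.32 without ewe 255. For the vessel and stroma list, r to LOC114112617 was 0.64 for MIR10B, 0.56 for MIR143, 0.54 for MIR199A and -0.66 for MIR21. Without ewe 255 these were 0.47, 0.29, 0.21 and -0.71.

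**Figure D4:**
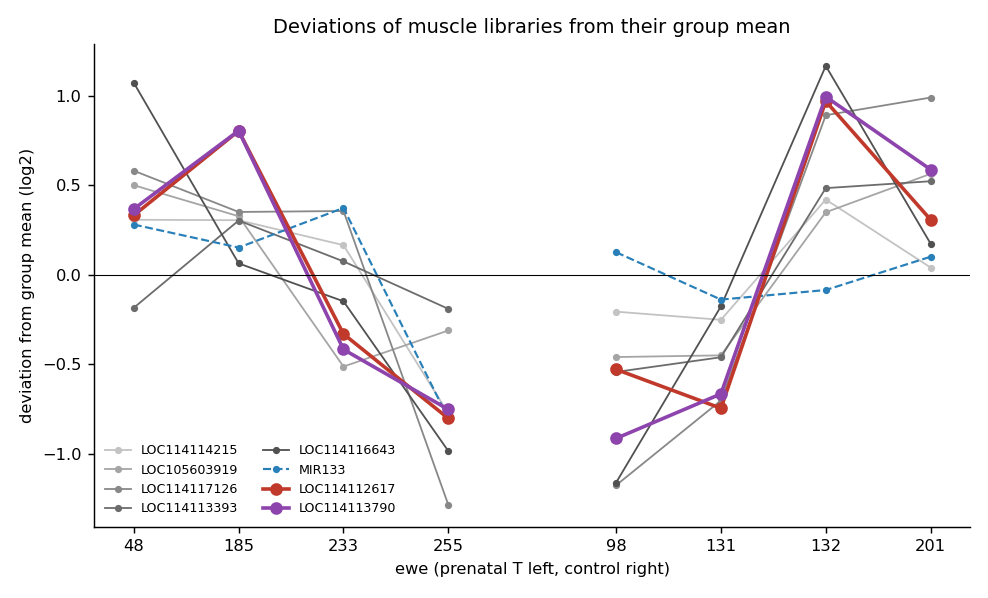
Deviation of each muscle library from its group mean in log2 units, for the pair (thick lines), the 5 features most like LOC114112617 (grey) and MIR133 (dashed), with prenatal T ewes left and control ewes right. The lines of the pair lie close together, at -0.80 and -0.75 in ewe 255 and at 0.97 and 0.99 in ewe 132, and part most in ewe 98, at -0.53 and -0.91.

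Whether the pair also differs after prenatal testosterone in liver was tested, since liver did not choose it. LOC114112617 held 806, 1539, 605 and 939 normalised reads in prenatal T liver of ewes 48, 185, 233 and 255, and 2583, 411, 666 and 486 in control liver of ewes 98, 131, 132 and 201. The groups overlapped, and the liver of ewe 98 was the highest of all. The means were 972 ± 402 in prenatal T liver and 1037 ± 1037 in control liver (SD, n = 4 each), with a log2 difference of 0.26 (SE 0.55, 95% interval -0.96 to 1.47, limma adjusted p = 0.890). The mean of values was lower and the mean of log2 values higher in prenatal T liver. Without the liver of ewe 98 the log2 difference was 0.84 (limma adjusted p = 0.660), and within library set 2 it was 0.90 (adjusted p = 0.403).

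LOC114113790 held 54.4, 122, 29.1 and 62.4 normalised reads in prenatal T liver of the same ewes, and 55.9, 39.4, 34.0 and 16.7 in control liver. The groups overlapped, with ewe 185 highest and ewe 201 lowest. The means were 67.1 ± 39.5 in prenatal T liver and 36.5 ± 16.2 in control liver (SD, n = 4 each), with a log2 difference of 0.80 (SE 0.48, 95% interval -0.28 to 1.87, limma adjusted p = 0.890). Without the liver of ewe 185 the difference was 0.45, and without that of ewe 201 it was 0.48. Within library set 2 it was 1.08 (limma adjusted p = 0.782). Limma called 0% of 121 lncRNAs in liver and found 0 at an unadjusted p under 0.05. The count was also 0 with edgeR and with DESeq2, each with 2 at an unadjusted p under 0.05. The log2 differences of -2.16 and -2.12 in muscle thus stand beside 0.26 and 0.80 in liver. The difference between the tissues was not tested, because the muscle values chose the pair.

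The liver of ewe 98, high in LOC114112617, also had the most MIR133 among livers, 816 normalised reads against 123 to 255 in the other 7, and the most LOC105604459, 694. Its ratio of LOC114113790 to LOC114112617 reads was the lowest of all libraries, 0.0217, while muscles had 0.284 to 0.451. LOC114113790 itself held 55.9 normalised reads there, within the range of the prenatal T livers. The liver of ewe 98 was also the only control liver of library set 1.

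The relation of the pair was tested over the 8 livers, which did not choose it. Pearson's r of the log2 values was 0.68 (exact permutation test over pairings, two-sided p = 0.0644, n = 8) and Spearman's rho was 0.79 (exact permutation p = 0.0279). This was the only relation across samples that was tested. Without the livers of ewes 98 and 185, the farthest from the median of LOC114112617, r was 0.67 (exact permutation p = 0.139, n = 6) and rho was 0.66 (exact permutation p = 0.175). Within library set 2, with 3 prenatal T and 3 control livers, r was 0.85 (exact permutation p = 0.0389, n = 6) and rho was 0.66 (exact permutation p = 0.175). For deviations from the group means, the measure used in muscle, r was 0.71 in liver. There 450 of the 7260 pairs of lncRNAs, 6.2%, this pair among them, had an r at least as high. By that measure LOC114113790 had rank 33 of 384 features in likeness to LOC114112617. Set 1 holds only 1 liver of each group.

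Muscle and liver were set side by side within each treatment on recovered reads scaled jointly, as the deposited values are scaled by tissue. By library number, all muscles but that of ewe 255 were in set 1. All livers but those of ewes 48 and 98 were in set 2. Tissue and library set therefore largely coincide, and their parts in these differences were not tested. The muscle libraries are those on which the pair was chosen, which placed it low in prenatal T and high in control muscle, so these differences are a description without a test. Jointly scaled over 16 libraries, LOC114112617 held 2193 ± 1125 reads in prenatal T muscle and 9590 ± 5272 in control muscle, and 916 ± 388 in prenatal T liver and 888 ± 801 in control liver (SD, n = 4 each). Control muscle was highest, with a lowest library of 5003, above every library of the other groups. Prenatal T muscle, from 1060 to 3632, overlapped prenatal T liver, from 568 to 1467, and control liver, from 395 to 2081. LOC114113790 held 837 ± 434 and 3699 ± 2221 in prenatal T and control muscle, and 63.2 ± 37.9 and 32.6 ± 12.4 in prenatal T and control liver. Its muscles, from 418 upwards, all lay above its livers, of which the highest was the prenatal T liver of ewe 185.

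In prenatal T ewes the log2 difference of muscle minus liver was 1.19 for LOC114112617 (SE 0.42) and 3.73 for LOC114113790 (SE 0.51, n = 4 of each tissue). In control ewes it was 3.67 (SE 0.53) and 6.71 (SE 0.48). These SEs ignore that both tissues came from the same ewes. With the ewe as a block they were 0.31 and 0.40 in prenatal T ewes and 0.53 and 0.54 in control ewes. On the scale of 16 libraries, both lncRNAs were higher in all 4 muscles than in the liver of the same ewe in each treatment. How many of all lncRNAs did so, or separated fully between the tissues, was not counted. These separations therefore do not set the pair apart from other lncRNAs. Among all lncRNAs tested, calls higher in muscle made up 22.4% in prenatal T ewes and 30.2% in control ewes, calls lower in muscle 28.4% and 31%, and calls in either direction 50.9% and 61.1%. That split moved with the scaling. In prenatal T ewes 26 lncRNAs were called higher and 33 lower, against 16 and 52 per read of the 4 classes and 9 and 96 per lncRNA read. In control ewes 38 were called higher and 39 lower, against 14 and 60 per read of the 4 classes and 9 and 99 per lncRNA read.

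The tissue difference of LOC114112617 rested on the scaling. Per lncRNA read, the median of all lncRNAs shifted to -2.49 in prenatal T ewes and -2.53 in control ewes. There LOC114112617 turned to -1.46 in prenatal T ewes and was 0.78 in control ewes, above that median in both. LOC105604459 and LOC105603743, the leading lncRNAs of muscle, averaged 226423 and 151000 normalised reads in muscle, and their part in this shift was not tested. LOC114113790 stayed higher in muscle, at 1.10 in prenatal T ewes and 3.85 in control ewes. In prenatal T ewes LOC114112617 was at 0.31 per read of the 4 classes.

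**Figure D5:**
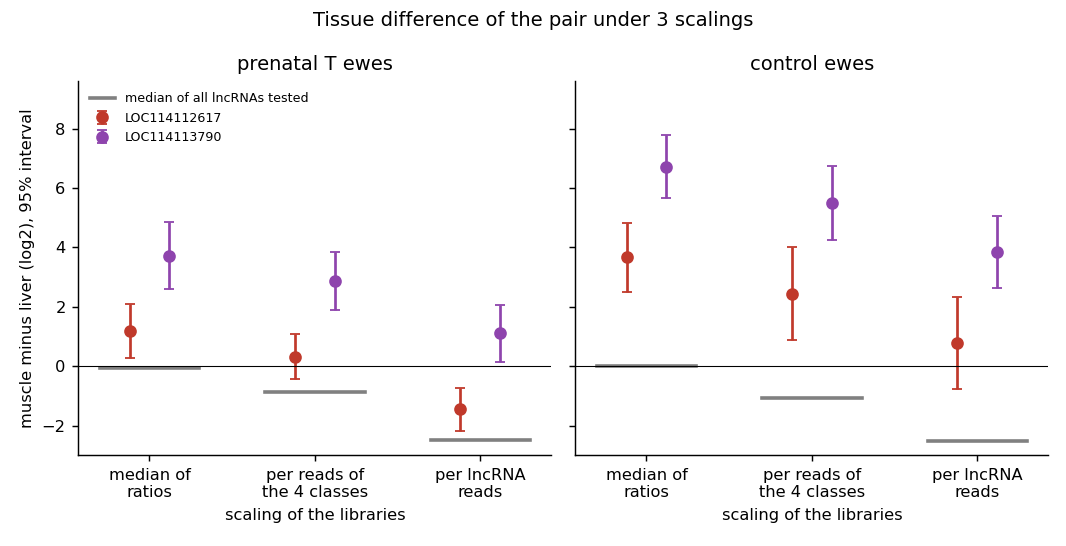
Log2 difference of muscle minus liver for the pair, with 95% intervals from limma, in prenatal T ewes (left) and control ewes (right) under 3 scalings; grey bars are the median of all lncRNAs tested. LOC114113790 lies above 0 in all, while LOC114112617 runs from 1.19 to -1.46 in prenatal T ewes. The muscle libraries chose the pair, so the intervals are a description and not a test. They come from fits without the ewe as a block. Most muscles were of library set 1 and most livers of set 2.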

How the data were processed

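The deposited values are a normalised signal, in which the authors scaled the reads of each feature by library, separately for each RNA class and tissue. The software named in the submitters' processing notes is cutadapt 3.2 and STAR 2.6.0c, with featureCounts 1.6.1 beside them. The sources used here give no roles, genome build or strand setting. Of 10585 lncRNA values above 0, 100% were whole multiples of 1 read within 0.001, so reads were recovered; within a tissue, recomputed median-of-ratios factors gave the deposited values.

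Prenatal T and control were compared within a tissue with limma 3.58.1 in R 4.3.3 (variance trend) on log2(value + 1) for all lncRNAs with a mean of at least 5, with Benjamini-Hochberg adjustment. The same fit on log2 values gave muscle minus liver, described for the pair without a test, from recovered reads scaled by median-of-ratios factors over the 8 libraries. Alternatives were edgeR 4.0.16 and DESeq2 1.42.0 on recovered reads, other pseudocounts, filters and scalings, and left-out libraries. Ratios and correlations used scipy 1.17.1. The fits were tested on simulated data.

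The members, lists and rules were chosen with earlier results of these data known. Likeness was named by the 5 highest and 3 lowest correlations, the highest of each class, and the 3 highest in liver. Liver and muscle of a ewe are paired by animal; their deviations correlated from -0.14 to 0.50 in prenatal T ewes and from -0.18 to 0.27 in control ewes. P-values measure the spread between ewes; no replicate libraries agreed within sampling noise (chi-square over its degrees of freedom 6.11 or more). Of 2973 lncRNA names, 1372 are in the annotation of ARS-UI_Ramb_v3.0, used for names and neighbours only. No sequences are shown.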

Additional observations from a re-analysis of the deposited data

Results flagged for a closer look

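The liver of control ewe 98 stood apart from the other control livers in LOC114112617 on all 3 scales examined. It held 2583 normalised reads, 4.97% of lncRNA reads and 0.833% of the reads of the 4 classes, against at most 666 normalised reads in the other 3 control livers. By Dixon's test its gap to the nearest library took 0.882 of the range of the normalised reads, above the 95% critical value for 4 libraries. These were the 3 sets of values marked among 28, and they describe the same library. Chance marks about 1 set in 20. MIR133 was also highest in this liver, with 816 normalised reads, and the part of that in the LOC114112617 value was not tested. This liver was the only control liver of library set 1, so ewe and set cannot be told apart among control livers.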

How the results depend on the processing

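The muscle difference of the pair kept its sign under all 21 alternatives, many of which could not turn it. With 1 library left out it ran from -2.43 to -1.84 for LOC114112617 and from -2.43 to -1.79 for LOC114113790. Every prenatal T muscle lay below every control muscle, so leaving out 1 library could not turn the sign. Other filters, recomputed size factors, no variance trend and a shared spread left the differences at the main -2.16 and -2.12. The fit within library set 1 repeated a left-out fit, and adding library set to the fit gave the same -1.89 and -1.87. The number of lncRNAs called in muscle, 4, was 1 with no variance trend and 0 by limma with a spread shared over 16 libraries (6 at an unadjusted p under 0.05; edgeR called 4 and DESeq2 5), and lay between 1 and 4 with 1 library left out (1 or 2 without ewe 131, 132, 201, 48 or 233). LOC114112617 was among the calls in 15 of 21 alternatives and LOC114113790 in 14. Both dropped out with no variance trend, with the shared spread and without ewe 132, 201, 48 or 233. LOC114113790 also dropped out without ewe 131. As the muscle contrast chose the pair, these counts describe how the call moved and are not a test of it. In liver LOC114112617 reversed with DESeq2 (-0.080) and without ewe 131 (-0.041), and ran from -0.041 to 0.84 over left-out libraries, with LOC114113790 from 0.45 to 1.13; neither was called under any alternative (adjusted p from 0.403 to 0.998). The liver ratio difference ran from 0.00492 to 0.0297 over left-out libraries.

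Muscle minus liver for LOC114112617 per lncRNA read reversed to -1.46 in prenatal T ewes and was 0.78 in control ewes; per read of the 4 classes it was 0.31 in prenatal T ewes. Leaving out 1 ewe gave 1.03 to 1.49 in prenatal T and 3.32 to 4.35 in control ewes. With the ewe as a replicate block the differences of LOC114112617 were again 1.19 in prenatal T and 3.67 in control ewes, and 65 and 75 lncRNAs were called. The lncRNAs called between tissues numbered 59 in prenatal T ewes, 105 per lncRNA read, 98 with no filter and 36 to 77 without 1 ewe (39 without ewe 48, 36 without ewe 185). In control ewes they numbered 77, 133 with no filter and 48 to 80 without 1 ewe (49 without ewe 132, 48 without ewe 201). Apart from the filter, which changes the features tested, the cause of these shifts was not tested.

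The liver correlation of the pair depended on the measure. On deviations from group means Pearson's r was 0.71 (permutation p = 0.0487, n = 8) and Spearman's rho 0.57 (permutation p = 0.151). These 2 p-values are approximate, since pairings were permuted across both groups although the deviations are centred within each. Within library set 2, r was 0.85 and rho 0.66, of which only r passed. Without ewe 98, chosen after seeing the data, r was 0.86 (exact permutation p = 0.0198) and rho 0.79 (exact permutation p = 0.0480). The muscle correlation was 0.90 by Spearman's rho and 0.97 to 0.99 without muscle of ewe 255 or, chosen after seeing the data, of ewe 98. Depth limits LOC114113790 in liver, with 16 to 156 reads a library.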

Other observations

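Over the 8 livers the features most like LOC114112617 were MIR181A-2 and MIR181A-1, copies of a miRNA known from lymphocyte development, and the lncRNA LOC114111256, each with r = 0.93 of the deviations from group means. Without the liver of ewe 98 these were 0.69, 0.69 and 0.65. MIR181A-2 had 3091 ± 489 normalised reads in prenatal T liver and 3790 ± 1427 in control liver (SD, n = 4 each). The features most like LOC114113790 in liver were the snoRNAs LOC114114236 (0.86) and LOC114108883 (0.85) and the small nuclear RNA LOC114117093 (0.83).

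Among prenatal T ewes, ewe 185 had the highest values of both lncRNAs in muscle and in liver. Among control ewes the order differed between tissues: ewe 98 led both lncRNAs in liver and was below ewes 132 and 201 in both in muscle.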
